A study of Nicrophorus vespilloides with 60 samples.

Results

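LOC108561581 (gene765 in the deposited matrix) is annotated as a glutamate receptor ionotropic kainate 2-like gene of the burying beetle Nicrophorus vespilloides, and it is the 1 gene described here of the 13761 genes counted. It was chosen by its identifier from the study's list of 82 genes. By the study's limits these genes separated NC_POP NC_ENV larvae from FC_POP FC_ENV larvae, but not FC_POP NC_ENV larvae from FC_POP FC_ENV larvae. That choice used the measured levels of those 3 groups, so the differences among them are given below as a description, with no test. The NC_POP FC_ENV libraries took no part in the comparisons that made the list. Their result was known, though, when this gene was singled out from it.

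The study let laboratory lines derived from the same wild-caught stock evolve without post-hatching parental care (No Care populations, NC_POP, lines N1 and N2) or with it (Full Care populations, FC_POP, lines F1 and F2), and then raised families of each line without parents (NC_ENV) or with them (FC_ENV). Heads of first-instar larvae, collected within a day of hatching, were pooled within each family, and each family gave 1 RNA library. The 46 RNA libraries fell into NC_POP NC_ENV (n = 12), NC_POP FC_ENV (n = 11), FC_POP NC_ENV (n = 11) and FC_POP FC_ENV (n = 12). N1 and F1 formed block 1 and N2 and F2 formed block 2, so line and block cannot be told apart within a population, and each population had 2 lines. The deposited counts of a library summed to 102719698 to 145666277, with a median of 115258789.

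Ionotropic glutamate receptors are membrane channels built from several subunits that open to cations when glutamate binds, and they are grouped into AMPA, kainate and NMDA types. In insects glutamate is the excitatory transmitter at the neuromuscular junction of body-wall muscle, and in Drosophila receptors of kainate type serve that junction as well as synapses in the brain. The name "kainate 2-like" rests on similarity to the vertebrate kainate receptor subunit, and the subunit's role in N. vespilloides is not given in the sources used here. The RefSeq annotation of assembly Nicve_v1.0 lists the gene as protein coding with 3 transcripts and 3 proteins, spanning bases 24279 to 26693 (2415 bases) of a scaffold that the gene table used here does not name. Exons, the sequence and the sharing of reads with related receptor genes were not analysed here.

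The gene was expressed at a low level in larval heads. Its mean over the 46 libraries was 0.675 CPM (the gene's count scaled to a common normalised library total), where the median gene tested had a mean of 13.1 CPM, and 85.3% of the 11777 tested genes had a higher mean. CPM does not correct for gene length, so this order compares counts and not transcripts. In 45 of the 46 libraries the gene had at least 15 counts, and the exception was the FC_POP FC_ENV family F2_27, with 7 counts (95% exact Poisson interval 2.81 to 14.4, counting error only). Reads carried no molecular identifiers that the sources used here describe, so such intervals are a lower limit of the error. Heads hold brain, muscle, cuticle and other tissue in bulk, and fewer cells that express the gene cannot be told apart from less RNA per cell.

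The medians of the NC_POP groups lay above those of the FC_POP groups in both environments. In NC_POP NC_ENV the level ran from 0.262 CPM through a median of 0.775 CPM to 2.50 CPM, with a mean of 0.913 ± 0.600 CPM (SD, n = 12). In NC_POP FC_ENV it ran from 0.197 CPM through a median of 1.16 CPM to 2.19 CPM, with a mean of 1.02 ± 0.619 CPM (SD, n = 11). FC_POP NC_ENV families ran from 0.196 CPM through a median of 0.351 CPM to 1.37 CPM, with a mean of 0.514 ± 0.374 CPM (SD, n = 11). The FC_POP FC_ENV families were the lowest group, from 0.0663 CPM through a median of 0.255 CPM to 0.529 CPM, with a mean of 0.270 ± 0.125 CPM (SD, n = 12). No group was separate from all others, since the lowest NC_POP family of either environment lay within the FC_POP FC_ENV range.

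**Figure D1:**
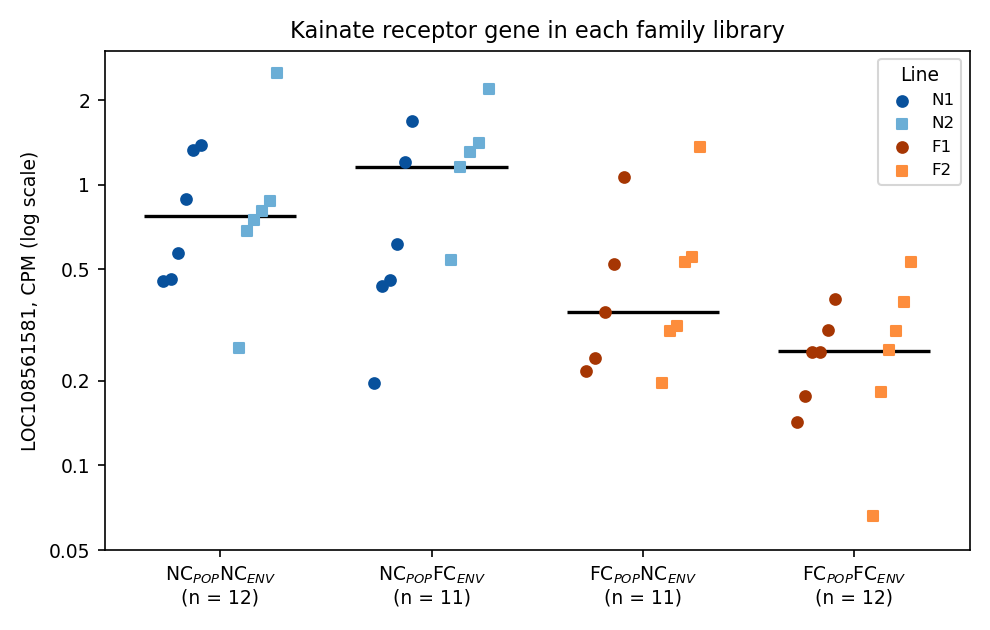
Level of LOC108561581 in each family library, in CPM on a log axis, for the 4 groups of population and environment; each point is 1 family, its colour and shape give the line, and the bar is the group's median. The medians were 0.775 CPM in NC_POP NC_ENV, 1.16 CPM in NC_POP FC_ENV, 0.351 CPM in FC_POP NC_ENV and 0.255 CPM in FC_POP FC_ENV, and the ranges overlapped.

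Ordered by level, the libraries of the evolved populations were mixed in the middle and set apart at the ends. Of the 10 highest libraries 9 came from NC_POP and 1 from FC_POP, and of the 10 lowest 1 came from NC_POP and 9 from FC_POP, 6 of them FC_POP FC_ENV. The 23 highest libraries held 17 of NC_POP and 6 of FC_POP. The list was made on all groups except NC_POP FC_ENV, so part of this order follows from the choice of the gene. The highest library was the NC_POP NC_ENV family N2_08 with 285 counts, and the lowest was F2_27.

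**Figure D2:**
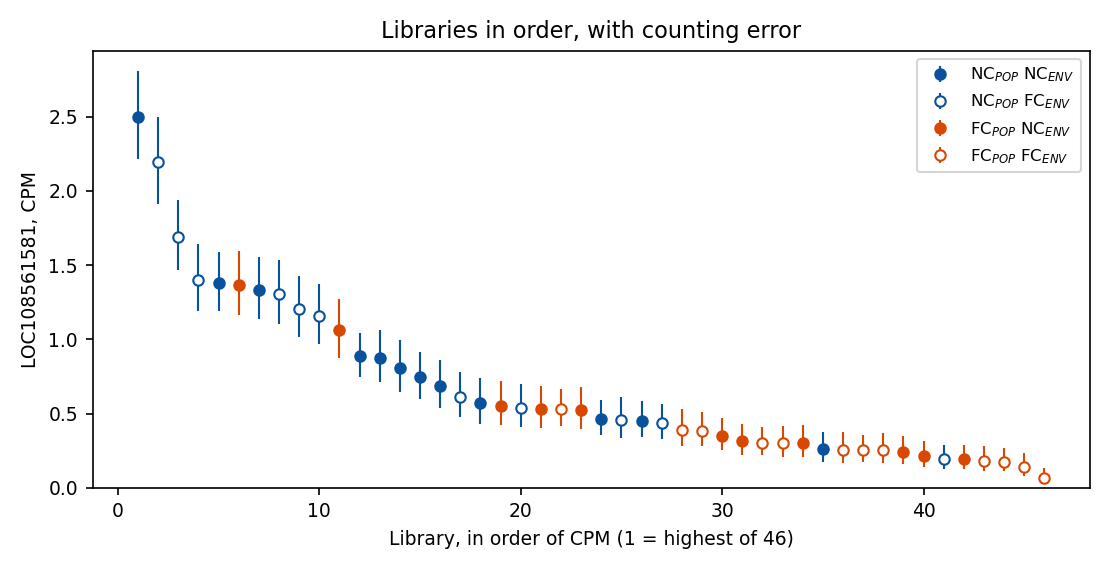
Level of LOC108561581 in CPM for the 46 libraries in order, with exact Poisson 95% intervals of the count as bars; colour gives the population and filled or open points give NC_ENV or FC_ENV. The 10 highest libraries held 9 of NC_POP and the 10 lowest held 9 of FC_POP, and the intervals at the ends do not reach each other.

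The comparison that asks whether the populations differed when both were raised with care set NC_POP FC_ENV against FC_POP FC_ENV. Of the 11 NC_POP FC_ENV families 8 lay above the highest FC_POP FC_ENV family and 10 above its median, and the NC_POP family had the higher level in 92.4% of the 132 pairs of a family from each group. The fitted level was 3.71-fold higher in NC_POP FC_ENV, a log2 fold change of 1.89 (SE 0.369, 95% interval 1.17 to 2.61, edgeR quasi-likelihood test with block as covariate, adjusted p = 0.00956). A gene was called here at an adjusted p under 0.01, over all genes tested, and an absolute log2 fold change of at least 1, and by this rule 0.0425% of the genes tested were called (5 of 11777, with 3 higher and 2 lower in NC_POP FC_ENV). LOC108561581 was one of the 5 and stood 8th by p and 48th by signed log2 fold change, counted from the highest, among all genes tested. The FC_POP FC_ENV libraries had been part of the choice of the gene and the result was known when the gene was singled out, so this test does not stand independently of the choice. Its error is that between families and not between lines, of which each population had 2.

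The adjusted p lay close to the limit, and the call depended on single families. Leaving out 1 library at a time gave log2 fold changes of 1.74 to 2.0 and adjusted p values of 0.00323 to 0.0253 (edgeR), so that each of the 46 refits stayed under 0.05 but 31 of them came out above 0.01. The call held only without F1_03, F1_09A, F2_26, F2_36, F2_41, N1_22, N1_23, N1_27, N1_29, N1_35, N1_40, N2_03, N2_07, N2_08 or N2_17, and it was lost without any other family. The lowest adjusted p came without N1_27, the lowest of the NC_POP FC_ENV families, and the highest came without N1_26, which had 200 counts. DESeq2, the tool the study used, gave 1.89 with an adjusted p of 2.37e-04. In a permutation test of the mean log2 CPM, which uses no count model, NC_POP FC_ENV averaged -0.24 ± 1.02 and FC_POP FC_ENV -1.95 ± 0.717 (SD, 11 and 12 families), a difference of 1.71 with two-sided p = 0.000200 (adjusted p = 0.00200 over 10 permutation tests). With labels moved only within blocks, the difference was 1.75 with p = 7.00e-05 in 100000 permutations. These permutations moved families and not lines, of which each population had 2. DESeq2 and the permutation tests used the same FC_POP FC_ENV libraries as the edgeR test. They do not stand independently of the choice of the gene either.

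The difference had the same direction in both blocks. The F1 FC_ENV and F2 FC_ENV libraries had been part of the choice of the gene. The tests of the 2 blocks therefore do not stand independently of that choice. In block 2 the N2 FC_ENV families had 0.540, 1.16, 1.31, 1.40 and 2.19 CPM, against 0.0663, 0.183, 0.257, 0.300, 0.383 and 0.529 CPM in the F2 FC_ENV families. Each of the 5 N2 families lay above each F2 family, with the lowest N2 family just past the highest F2 family. The log2 fold change was 2.20 (SE 0.545, 95% interval 1.13 to 3.26), and its adjusted p of 0.0571 in edgeR missed the limit for a call, which 0.0425% of all genes passed in this block. The exact permutation test gave a difference of mean log2 CPM of 2.23 with p = 0.00433, the smallest that 5 against 6 families can give, and adjusted p = 0.0216.

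In block 1 the N1 FC_ENV families had 0.197, 0.436, 0.458, 0.615, 1.21 and 1.69 CPM, against 0.143, 0.176, 0.253, 0.253, 0.305 and 0.390 CPM in the F1 FC_ENV families. Of the 6 N1 families 5 lay above the highest F1 family, and N1_27 lay inside the F1 range. The log2 fold change was 1.6 (SE 0.523, 95% interval 0.57 to 2.62) with an adjusted p of 0.188 in edgeR, where 0.0425% of all genes were called. The exact permutation test gave a difference of 1.28 in mean log2 CPM with p = 0.0238 and adjusted p = 0.0794, so this block taken alone did not pass after adjustment.

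**Figure D3:**
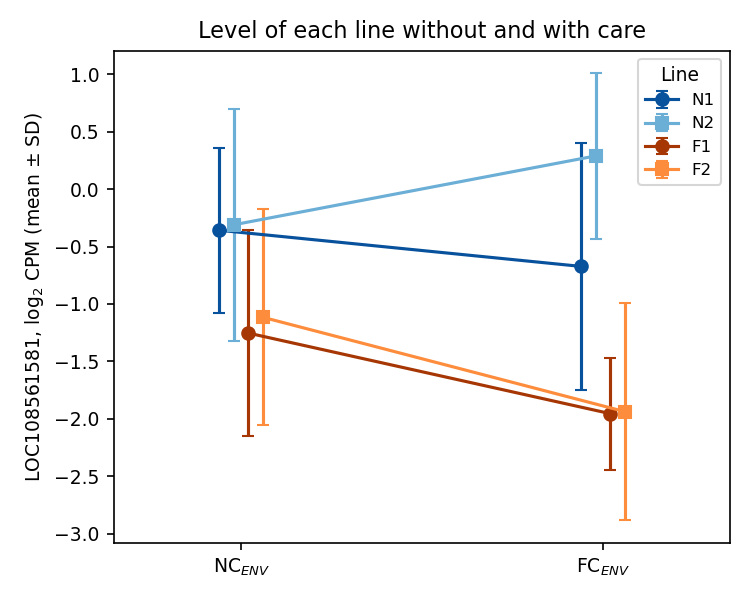
Mean log2 CPM of LOC108561581 (± SD over 5 or 6 families) in each line raised without care (NC_ENV) and with care (FC_ENV); lines join the environments of a line and are colour-coded by line. With care the N1 and N2 means lay above the F1 and F2 means, while the N1 and N2 lines slope in opposite directions.

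Within NC_POP the level did not differ detectably between larvae raised without and with care. The log2 fold change of NC_POP NC_ENV against NC_POP FC_ENV was -0.14 (SE 0.357, 95% interval -0.84 to 0.56, edgeR adjusted p = 0.787), in a comparison that called 2.31% of all genes. A change in either direction within that interval is compatible with these families. The interval does not give the smallest change that could have been detected. The NC_POP NC_ENV libraries had been part of the choice of the gene, so this test and those within N1 and N2 below do not stand independently of it either. The NC_ENV family had the higher level in 47% of the 132 pairs, and 11 of the 12 NC_ENV families lay within the range of the FC_ENV families. A two-sided permutation test over families gave a difference of -0.10 in mean log2 CPM (permutation p = 0.805, adjusted p = 0.959).

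The lines of NC_POP took opposite signs in this response, neither of them past its error. N1 NC_ENV families had 0.453, 0.462, 0.570, 0.886, 1.33 and 1.38 CPM, against the N1 FC_ENV values given above, a log2 fold change of 0.14 (SE 0.506, 95% interval -0.85 to 1.14). N2 NC_ENV families had 0.262, 0.684, 0.745, 0.805, 0.876 and 2.50 CPM, and 5 of the 6 lay below 4 of the 5 N2 FC_ENV families, with a log2 fold change of -0.43 (SE 0.528, 95% interval -1.47 to 0.60). The exact permutation tests gave p = 0.561 in N1 and p = 0.294 in N2 (adjusted p = 0.934 and 0.589). The response of N1 minus the response of N2 was 0.58 (SE 0.731, 95% interval -0.86 to 2.01, edgeR adjusted p = 0.858). By this difference edgeR called 0% of all genes (0 of 11777, with 972 at an unadjusted p under 0.05), and DESeq2 called 6 genes, LOC108561581 not among them.

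Replicate lines of a population did not differ detectably. All F1 and F2 libraries, and the NC_ENV libraries of N1 and N2, had been part of the choice of the gene. The tests between lines therefore do not stand independently of that choice. N1 averaged 0.807 ± 0.479 CPM and N2 1.13 ± 0.687 CPM over both environments (SD, 12 and 11 families), a log2 fold change of -0.50 (SE 0.366, 95% interval -1.21 to 0.22, edgeR adjusted p = 0.359), where 0.56% of all genes were called. F1 averaged 0.356 ± 0.257 CPM and F2 0.415 ± 0.335 CPM (SD, 11 and 12 families), a log2 fold change of -0.18 (SE 0.372, 95% interval -0.91 to 0.55, edgeR adjusted p = 0.864), where 0.425% were called. Within FC_ENV the N1 mean lay 0.96 below the N2 mean in log2 CPM (exact permutation p = 0.139), and the F1 mean lay 0.02 below the F2 mean (exact permutation p = 0.959).

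By median, the 8 groups of line and environment ran from N2 FC_ENV at 1.31 CPM through N2 NC_ENV at 0.775 CPM, N1 NC_ENV at 0.728 CPM, N1 FC_ENV at 0.536 CPM, F2 NC_ENV at 0.422 CPM, F1 NC_ENV at 0.351 CPM and F2 FC_ENV at 0.279 CPM to F1 FC_ENV at 0.253 CPM. The 4 NC_POP groups took the upper places and the 4 FC_POP groups the lower ones. The list was made on all of these groups except N1 FC_ENV and N2 FC_ENV, so part of this order follows from the choice. Between neighbours in this order, each gap of mean log2 CPM was smaller than the pooled SD of single families. The largest gap was 0.684, between F1 NC_ENV and F2 FC_ENV, with a pooled SD of 0.923. The SD of families is larger than the error of a mean, so this does not test whether the means differ.

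Among the 3 groups on which the gene was chosen, the fitted level was 3.37-fold higher in NC_POP NC_ENV than in FC_POP FC_ENV (log2 fold change 1.75, SE 0.362). It was 1.88-fold higher in FC_POP NC_ENV than in FC_POP FC_ENV (log2 fold change 0.91, SE 0.364, 95% interval 0.20 to 1.62). This value lies under the limit of 1 that the study set on the log2 scale for genes it called. The interval reaches past that limit. The study first shrank its fold changes to more conservative estimates, which was not done here. F1 NC_ENV families had 0.218, 0.242, 0.351, 0.522 and 1.06 CPM, and 2 of the 5 lay above the highest F1 FC_ENV family. F2 NC_ENV families had 0.196, 0.300, 0.313, 0.531, 0.554 and 1.37 CPM, and 3 of the 6 lay above the highest F2 FC_ENV family. The fitted rise without care was 0.91 in F1 (SE 0.538) and 0.92 in F2 (SE 0.516) on the log2 scale. Between the populations raised without care, the log2 fold change of NC_POP NC_ENV against FC_POP NC_ENV was 0.84 (SE 0.362), with the NC_POP family higher in 76.5% of pairs. The response of NC_POP to the absence of care minus that of FC_POP was -1.05 (SE 0.509, 95% interval -2.05 to -0.05). These values share libraries with the choice and are not tested.

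**Figure D4:**
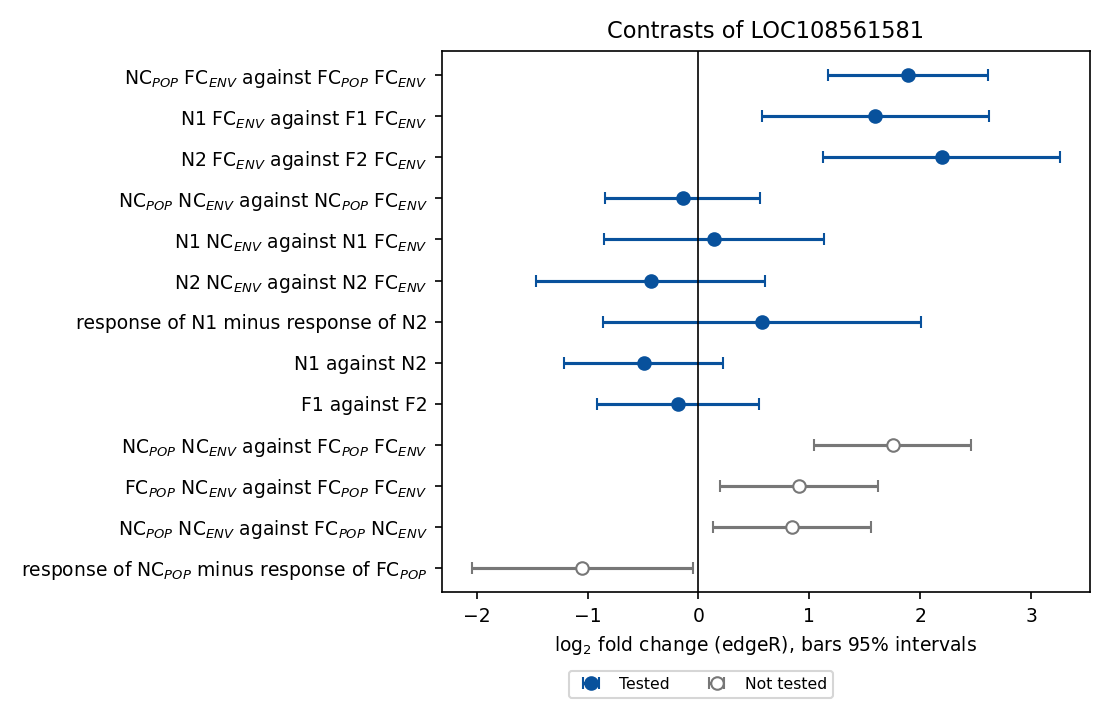
Log2 fold changes of LOC108561581 from edgeR with bars of 95% intervals; filled points are comparisons that were tested and open points are comparisons that were not. Filled points also hold libraries used to make the study's list, which left out only NC_POP FC_ENV. The result of NC_POP FC_ENV was known when the gene was singled out. The intervals of NC_POP FC_ENV against FC_POP FC_ENV (1.17 to 2.61) and of its 2 blocks lie above 0, and those of the 6 other tested comparisons lie across 0.

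The spread between families of the same line and environment is given here with the counting error. The coefficient of variation of CPM within a group of line and environment ran from 0.351 in F1 FC_ENV to 0.792 in N2 NC_ENV, where Poisson counting alone gives 0.183 and 0.0949 at those counts if each count is 1 read. The biological coefficient of variation of the gene in the edgeR fit was 0.579, and 78.6% of the tested genes had a lower one. Relative to genes of a similar level, the squared coefficient of variation was exceeded by 21.9% of genes in NC_POP NC_ENV, 28.9% in NC_POP FC_ENV, 23.6% in FC_POP NC_ENV and 70.2% in FC_POP FC_ENV. The mean absolute deviation of log2 CPM from the median of the own line and environment was 0.627 ± 0.560 in NC_POP and 0.589 ± 0.513 in FC_POP (SD, 23 families each), a difference of 0.04 with p = 0.809 in a two-sided permutation test. Low counts raise the spread of log values, and FC_POP had the lower counts. All groups except NC_POP FC_ENV had been part of the choice of the gene. Passing the study's limits depends on spread as well as level, so the spread values and their test do not stand independently of that choice.

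Of the study's list of 82 genes, 78 passed the filter on low counts. Between NC_POP FC_ENV and FC_POP FC_ENV, 4 of them were called (3 higher and 1 lower), where 0.0425% of all genes tested were, with a median absolute log2 fold change of 0.378 over the list and 0.108 over all genes tested, and LOC108561581 stood 5th by signed log2 fold change and 4th by p in the list. The other list members called were LOC108566886 (coiled-coil domain-containing protein 12, log2 fold change 1.18, SE 0.160), LOC108557038 (uncharacterized, 8.59, SE 1.44) and LOC108564555 (heat shock 70 kDa protein 1A-like, a chaperone, -2.80, SE 0.438). A further gene, gene10793, which is not in the list and has no name here, had -2.38 (SE 0.470). These 4 genes are named because they passed the call, after their values were seen. Between NC_POP NC_ENV and NC_POP FC_ENV, 24 list members were called, 14 higher and 10 lower, where 2.31% of all genes tested were (160 higher and 112 lower), with a median absolute log2 fold change of 1.40 over the list and 0.302 over all genes tested, and LOC108561581 stood 44th of the 78 by signed log2 fold change. The study chose this list on these samples.

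The 3 other receptor genes in the list were not called in NC_POP FC_ENV against FC_POP FC_ENV or in NC_POP NC_ENV against NC_POP FC_ENV, where 0.0425% and 2.31% of all genes were called, so that 0 of 3 says nothing particular about them. LOC108567943 (orexin receptor type 2-like, a neuropeptide receptor coupled to G proteins) averaged 0.0155 CPM in NC_POP NC_ENV, 0.0611 CPM in NC_POP FC_ENV, 0.199 CPM in FC_POP NC_ENV and 0.184 CPM in FC_POP FC_ENV. Its counts were 0 to 89 per library, and its log2 fold change of NC_POP FC_ENV against FC_POP FC_ENV was -1.49 (SE 0.911, edgeR adjusted p = 0.775). LOC108561576 (trace amine-associated receptor 5, an amine receptor coupled to G proteins) averaged 2.06 CPM in NC_POP NC_ENV, 1.18 CPM in NC_POP FC_ENV, 1.39 CPM in FC_POP NC_ENV and 0.817 CPM in FC_POP FC_ENV. Its log2 fold change with care was 0.60 (SE 0.345, edgeR adjusted p = 0.756), and within NC_POP without against with care it was 0.80 (SE 0.345, edgeR adjusted p = 0.0665). LOC108561283 (receptor-type guanylate cyclase gcy-28-like, named after a cyclic GMP producing receptor of Caenorhabditis elegans) averaged 0.382 CPM in NC_POP NC_ENV, 0.227 CPM in NC_POP FC_ENV, 0.216 CPM in FC_POP NC_ENV and 0.118 CPM in FC_POP FC_ENV. Its log2 fold change with care was 0.92 (SE 0.501, edgeR adjusted p = 0.725). Both LOC108561576 and LOC108561283 had their highest mean in NC_POP NC_ENV, a group on which the list was made. LOC108561581 had its highest mean in NC_POP FC_ENV, but only N2 had this order. Its mean was 1.32 CPM in N2 FC_ENV and 0.978 CPM in N2 NC_ENV, against 0.767 CPM in N1 FC_ENV and 0.847 CPM in N1 NC_ENV. These differences between genes were not tested.

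Across the 46 libraries the genes most like LOC108561581 in log2 CPM were gene6146 (Pearson's r = 0.579) and gene10535 (r = 0.564), and 7 of the 11776 other tested genes had an r over 0.5. The names of these genes are not paired with their identifiers in the files used here. gene6146 averaged 0.381 CPM in NC_POP NC_ENV, 0.483 CPM in NC_POP FC_ENV, 0.370 CPM in FC_POP NC_ENV and 0.256 CPM in FC_POP FC_ENV, with nearly equal means of the populations raised without care. gene10535 averaged 12.2 CPM in NC_POP NC_ENV, 11.96 CPM in NC_POP FC_ENV, 7.88 CPM in FC_POP NC_ENV and 5.72 CPM in FC_POP FC_ENV. The correlation includes the differences between groups, so group means that resemble those of LOC108561581 follow in part from the way these genes were picked. With the mean of each line and environment taken out, the most alike were gene12602 (r = 0.540) and gene2265 (r = 0.514), and 3 genes had an r over 0.5. Of the 5 most alike genes by each measure, 1 gene, gene2265, was in both, at a mean of 0.0932 CPM. Several libraries held no count of gene2265, so its r depends in part on the prior count. These correlations are descriptions over libraries that share groups, lines and depth, and they are the highest of 11776.

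Of the tissue in each pool, the only marks that could be matched by name were the 10 cuticle protein genes of the study's list, which the study chose on these samples. Their summed level had a median of 1708 CPM in NC_POP NC_ENV (range 940 to 4881), 3998 CPM in NC_POP FC_ENV (719 to 7830), 1571 CPM in FC_POP NC_ENV (840 to 4967) and 5185 CPM in FC_POP FC_ENV (975 to 8203). Over the 46 libraries the sum had r = -0.03 and rho = -0.05 with LOC108561581, as a description. Markers of neurons, glia and muscle, and the other glutamate receptor and transporter genes, were not analysed here, and the part of the mix of tissues in these differences was not tested.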

How the data were processed

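RNA libraries of pooled larval heads, 1 per family, were grouped by line and environment from the labels. Of 60 samples 14 were bisulfite libraries, not analysed here. After trimming, the authors aligned reads with HISAT to the RefSeq assembly, used StringTie for quantification, and deposited raw counts per gene as whole numbers. Multiples of 4 made up 39.8% of the counts between 1 and 100 (25% by even spacing), so intervals that take each count as 1 read may be too narrow. No pair of libraries of a group was identical (0 of 110), and 0 columns were left aside. Replicates are separate families.

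Tests used edgeR 4.0.16 in R 4.3.3 (TMM, quasi-likelihood, Benjamini-Hochberg adjustment over all genes tested). A gene was tested if 10% or more of the libraries held 15 or more of its counts. The 4 groups of population and environment were fitted with block as covariate, and the 8 groups of line and environment without it. Log2 CPM used a prior count of 2. Permutation tests (scipy 1.17.1) were exact for single lines and used 100000 permutations otherwise. The fits and the likeness ranking were tested on simulated data. Named genes were LOC108561581, the receptor genes of the study's list and the genes most correlated with LOC108561581, of which the first 2 of each ranking are named. Gene names came from the study's list (82 pairs, all in the matrix). Alternatives were DESeq2 1.42.0, its size factors, no or a stricter filter (at least 50% of libraries), other fits and scales, and each library left out. The gene, the lists and the tests were chosen with earlier results of these data known.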

Additional observations from a re-analysis of the deposited data

Results flagged for a closer look

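In 2 of the 8 groups of line and environment, 1 family lay far above the rest on the CPM scale. This was by Dixon's test at the 95% level for 6 families (limit 0.625). The test was not run on log2 CPM, the scale of the main permutation tests. N2_08 had 2.50 CPM of LOC108561581 in N2 NC_ENV, with a gap of 0.725 of the group's range to the next family. Without it the NC_POP NC_ENV mean was 0.769 ± 0.348 CPM (SD, n = 11). F2_36 had 1.37 CPM in F2 NC_ENV, with a gap of 0.694 of the range, and without it the FC_POP NC_ENV mean was 0.429 ± 0.259 CPM (SD, n = 10). Chance flags about 1 in 20 groups if values follow a normal distribution, which was not checked for CPM. Both families were raised without care and neither entered the comparison of the populations raised with care other than through the shared fit, where leaving out N2_08 gave an adjusted p of 0.00640 and leaving out F2_36 gave 0.00572 (edgeR).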

How the results depend on the processing

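For NC_POP FC_ENV against FC_POP FC_ENV, the log2 fold change of LOC108561581 was 1.88 with DESeq2 size factors in edgeR (adjusted p = 0.01004), 1.89 without a filter (0.0106), 1.89 with 15 counts in at least 50% of the libraries (0.0102), 1.88 with only the groups compared in the fit (0.0305), 1.59 in block 1 alone (0.235) and 2.21 in block 2 alone (0.117). None of these 6 was called, while DESeq2 (adjusted p = 2.37e-04) and the fit without block (1.91, adjusted p = 0.00849) called the gene. The block fits hold fewer libraries. Against 5 genes called, DESeq2 called 14, and the 6 settings above 4, 3, 2, 1, 4 and 0. Leaving out each library gave 1.74 to 2.0 and 3 to 8 calls. NC_POP NC_ENV against NC_POP FC_ENV was 0.15 in block 1 alone, of opposite sign (adjusted p = 0.861), -0.46 in block 2 alone and -0.34 to 0.028 with a library left out (0.028 without N2_16), and was never called. That comparison called 272 genes, 419 with DESeq2, 134 and 139 in block 1 and block 2 alone, and 193 to 450 with a library left out. N2 FC_ENV against F2 FC_ENV was called by DESeq2 (2.19, adjusted p = 0.00810) and ran from 1.92 to 2.47 with a library left out, with 5 genes called by edgeR (1 to 10), and 40 by DESeq2. N1 FC_ENV against F1 FC_ENV ran from 1.20 to 1.79, with 5 and 27 genes called. N1 against N2 ran from -0.69 to -0.22 (66 genes called, 33 to 95 with a library left out, 227 by DESeq2), and F1 against F2 from -0.45 to 0.090, of opposite sign without F2_36 (50 genes called, 29 to 54, 98 by DESeq2). The difference of the N1 and N2 responses ran from 0.29 to 1.07. Results of the permutation tests and of the spread kept their direction and side of the limit with a prior count of 0.5 and on other scales. By Spearman's rho 3 of the 5 most alike genes over all libraries stayed among the first 5, and 4 of 5 within groups. The cause of these changes was not tested. No paired analysis was possible because each family was sequenced in 1 group only, and family numbers that recur belong to families of different lines. The gene had 7 to 285 counts per library, which limits the precision at the low end (2.81 to 14.4 for the lowest count, exact Poisson).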
